A study of Mus musculus with 16 samples.

Results

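The comparison covers the ileal whole wall of insulin-treated diabetic mice labelled as lacking the insulin receptor in the intestinal epithelium (ieIRKO-STAM-INS, n = 6) and of insulin-treated controls (Control-STAM-INS, n = 6). These 12 of the 16 libraries of the series were chosen by their labels. The ieIRKO-STAM-INS mice carried Vilin-Cre(+) with InsR-flox, and the Control-STAM-INS mice carried InsR-flox without the Cre. The Villin promoter drives Cre in the intestinal epithelium, so that muscle, vessels, nerves and immune cells of the wall keep the floxed gene. All 12 were male STAM mice, a model of diabetes with steatohepatitis made by streptozotocin on day 2 of life and then a high-fat diet begun at 4 weeks. Insulin degludec, a long-acting insulin, was given 2 times a day from 6 weeks at up to 12 U/kg, and tissue was taken at 20 weeks. The remaining 4 libraries (Control-STAM-nonINS) were from controls without insulin and are used here for their levels and in the shared estimate of spread.

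Paneth cells sit at the base of the small intestinal crypts, next to the stem cells, and release granules of antimicrobial proteins into the crypt lumen. Alpha-defensins, small peptides that disrupt bacterial membranes, are their most diverse product in mice and are encoded as a family of near-identical genes in a cluster on chromosome 8. Lysozyme cleaves bacterial cell walls and is encoded in mice by a Paneth cell gene, Lyz1, and a myeloid gene, Lyz2, that lie beside each other. Metallothioneins bind zinc and copper, and their genes form a separate cluster on chromosome 8.

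The starts of the genes on which the results turn are shown first. A RefSeq table of promoters (GRCm38.p6, 250 bases before to 50 after each gene's start) held entries for 19 of the 34 genes called below and for 12 of the 22 alpha-defensin genes. The letters CTTTGAT, one form of the site bound by the TCF/LEF factors of the Wnt pathway, were searched on both strands. All 12 alpha-defensin promoters held them, and 3.73% of all 32851 promoters of this length did. Each of the 20 matches lay on the strand opposite to the gene, so that it reads ATCAAAG below, where these letters are in capitals. The match nearest to the start began between 142 and 70 bases before it. Of the 7 genes called lower outside the defensin cluster that had an entry, 0 held the letters, and of the 4 genes called higher with an entry, 0 did. Other motifs were searched too. CTTTGAA, another TCF/LEF form, was in 0 of the 12 alpha-defensin promoters and in 5.14% of all promoters. The forkhead letters GTAAACA were in 0 of the 12 and in 3.65% of all. The 12 promoters are much alike, so their matches are not independent. The whole Defa23 promoter (chr8:21054790-21055089, + strand) is followed by stretches of 41 bases around a match in Defa2 (chr8:21378388-21378428), Defa21 (chr8:21025416-21025456), Defa30 (chr8:21134491-21134531) and Defa36 (chr8:21427284-21427324), all on the + strand, which show how alike the family is.
Defa23: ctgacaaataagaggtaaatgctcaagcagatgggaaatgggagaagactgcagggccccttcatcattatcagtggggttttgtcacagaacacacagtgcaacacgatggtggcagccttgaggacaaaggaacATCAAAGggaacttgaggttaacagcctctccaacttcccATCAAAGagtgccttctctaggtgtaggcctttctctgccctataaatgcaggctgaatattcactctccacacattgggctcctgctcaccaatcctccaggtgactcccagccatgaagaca
Defa2: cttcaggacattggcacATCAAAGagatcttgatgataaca
Defa21: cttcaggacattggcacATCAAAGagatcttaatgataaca
Defa30: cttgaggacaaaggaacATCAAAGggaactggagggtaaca
Defa36: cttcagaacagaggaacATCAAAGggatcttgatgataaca

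Lyz1 (chr10:117292819-117293118, - strand) and Lyz2 (chr10:117282223-117282522, - strand) had promoters with 249 identical bases of 300 (83% of the positions). Capitals mark the bases that were not identical between them in a global alignment. These fell mostly in the part farther from the start.
Lyz1: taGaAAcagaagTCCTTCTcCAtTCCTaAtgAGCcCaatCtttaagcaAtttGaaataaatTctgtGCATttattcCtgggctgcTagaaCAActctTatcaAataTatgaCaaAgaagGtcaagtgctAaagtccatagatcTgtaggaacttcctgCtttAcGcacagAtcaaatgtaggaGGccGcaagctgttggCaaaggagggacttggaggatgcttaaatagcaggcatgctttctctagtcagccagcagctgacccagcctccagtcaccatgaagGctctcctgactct
Lyz2: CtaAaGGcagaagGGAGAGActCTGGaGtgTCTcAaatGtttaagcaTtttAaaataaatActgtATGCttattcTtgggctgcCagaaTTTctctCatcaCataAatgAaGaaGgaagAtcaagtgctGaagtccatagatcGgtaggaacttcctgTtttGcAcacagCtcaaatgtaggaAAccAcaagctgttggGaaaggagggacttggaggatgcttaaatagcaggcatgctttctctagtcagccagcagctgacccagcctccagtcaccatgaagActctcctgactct

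The metallothionein promoters are shown because Mt4 and the antisense gene Gm45774, which lie among these genes, had the largest differences of the called genes. Mt1 (chr8:94178839-94179138), Mt2 (chr8:94172368-94172667) and Mt4 (chr8:94136954-94137253) are all on the + strand. Capitals mark the core letters of the metal response element, TGCACNC or TGCGCNC, on either strand. Mt1 held 3 matches, Mt2 4 and Mt4 1, and 25.7% of all promoters of this length held at least 1. The Mt2 promoter lies wholly inside the single exon of Gm45774 on the opposite strand. A match is a description of letters and does not show binding.
Mt1: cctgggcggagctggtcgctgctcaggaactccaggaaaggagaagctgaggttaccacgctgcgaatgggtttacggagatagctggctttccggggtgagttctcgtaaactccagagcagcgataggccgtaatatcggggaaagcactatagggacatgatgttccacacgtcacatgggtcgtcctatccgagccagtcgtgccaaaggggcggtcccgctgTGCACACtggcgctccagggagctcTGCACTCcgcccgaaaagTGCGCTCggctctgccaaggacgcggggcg
Mt2: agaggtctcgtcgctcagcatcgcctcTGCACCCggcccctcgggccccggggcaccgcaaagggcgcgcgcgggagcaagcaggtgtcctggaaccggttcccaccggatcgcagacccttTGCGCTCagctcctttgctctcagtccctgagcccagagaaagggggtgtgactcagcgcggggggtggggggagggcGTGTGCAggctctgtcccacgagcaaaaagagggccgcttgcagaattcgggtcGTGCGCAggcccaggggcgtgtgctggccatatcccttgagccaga
Mt4: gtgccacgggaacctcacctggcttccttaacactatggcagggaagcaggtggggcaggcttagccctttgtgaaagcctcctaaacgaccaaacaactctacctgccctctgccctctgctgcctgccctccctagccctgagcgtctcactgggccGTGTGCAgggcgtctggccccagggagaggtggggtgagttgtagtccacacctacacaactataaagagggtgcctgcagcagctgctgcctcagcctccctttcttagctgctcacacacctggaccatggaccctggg

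The deposited tables gave the reads counted on each of 41740 genes, with 13288018 to 22215382 reads per library over the 16 libraries. Levels below are normalised read counts, in CPM (reads per gene over the TMM-scaled total of the library). The total read count did not separate the groups (exact permutation test, two-sided, p = 0.364). Genes that mark the ileum were abundant in both groups. Fabp6, the ileal bile acid binding protein, ranged from 3265 to 5829 CPM in ieIRKO-STAM-INS and from 3742 to 6494 CPM in Control-STAM-INS. Of 10 pancreatic acinar genes 9 were too low to test, as were 7 of 11 genes of other gut segments. ieIRKO-STAM-INS replicates 2 and 3 stood apart in B lymphocyte genes. The summed level of 20 tested B cell and germinal centre genes was 1031 CPM in replicate 2 and 584 CPM in replicate 3, against 88.1 to 147 CPM in the other 4 libraries of that group and 77.4 to 103 CPM in Control-STAM-INS. Results are therefore also given without these 2 libraries, an alternative chosen after the values were seen.

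The insulin receptor gene itself was examined first (Insr, chromosome 8, 3122061 to 3279617 on GRCm38, - strand). It had 76.3, 61.9, 59.1, 90.45, 57.5 and 58.2 CPM in ieIRKO-STAM-INS replicates 1 to 6. Control-STAM-INS replicates 1 to 6 had 69.9, 76.1, 49.9, 60.6, 66.8 and 52.85 CPM. The groups overlapped, and no difference in Insr was detected (log2 fold change 0.10, 95% confidence interval -0.15 to 0.35, adjusted p = 0.805 by edgeR's quasi-likelihood test). An exact permutation test gave p = 0.535, where the smallest p possible is 0.00216. The direction depended on the summary used. The mean was 67.2 CPM in ieIRKO-STAM-INS and 62.7 CPM in Control-STAM-INS, while the medians were 60.5 and 63.7 CPM. Without ieIRKO-STAM-INS replicate 4 the log2 fold change was -0.0026. These Insr levels are counts over the whole gene in the whole wall. Reads over the floxed part alone were not analysed here. In these counts the knockout therefore rests on the labels, and the directions below are those of the libraries labelled ieIRKO-STAM-INS. The genes of the insulin pathway were likewise near their control levels. Of 29 genes for receptors, substrates, kinases and mTOR complex members, 0 were called by edgeR or DESeq2, with 3 higher and 2 lower at an unadjusted p under 0.05 and a median log2 fold change of 0.01. Leaving out replicates 2 and 3, 1 was higher and 2 were lower at that p. Of the 29, Akt1, a kinase downstream of the receptor, was at 0.25 (standard error 0.08, adjusted p = 0.297), and Foxo3, a factor restrained by that kinase, at -0.41 (standard error 0.17, adjusted p = 0.377). Of 16 insulin- and FOXO-responsive genes, 0 were called by edgeR or DESeq2, with 1 higher and 1 lower at an unadjusted p under 0.05. Pck1, which encodes a gluconeogenic enzyme, ranged from 4.98 to 274 CPM in ieIRKO-STAM-INS and from 10.99 to 79.9 CPM in Control-STAM-INS.

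Across the transcriptome 34 of 15267 tested genes differed, at an adjusted p under 0.05 in edgeR's quasi-likelihood test. These were 0.223% of the genes tested, with 6 higher (0.0393%) and 28 lower (0.183%) where the label was ieIRKO-STAM-INS. The 28 lower genes were 15 alpha-defensin genes with Defa names, 4 other coding genes of the alpha-defensin cluster, 5 genes of the list of other Paneth cell products, and Prodh, Ces1f, H2-Q2 and Tmeff2. The 6 higher genes were Gm45774, Mt4, Ndnf, Il1rl1, Lax1 and Ciapin1. The groups did not overlap in 33 of the 34, and the exception was Defa36. Over all tested genes, 67 (0.439%) were higher and 62 (0.406%) lower without overlap. At an unadjusted p under 0.05, 1126 genes (7.38%) were higher and 595 (3.9%) lower. Without ieIRKO-STAM-INS replicates 2 and 3, 23 of 15256 genes were called (0.151%), among them 22 of the 34. All 34 kept their direction, and the 12 that were no longer called had an adjusted p between 0.061 and 0.236 by edgeR. These 12 were Defa17, Defa30, Defa35, Defa36, Gm14851, Nupr1, Itln1, Lax1, Ciapin1, Ces1f, H2-Q2 and Tmeff2.

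**Figure D1:**
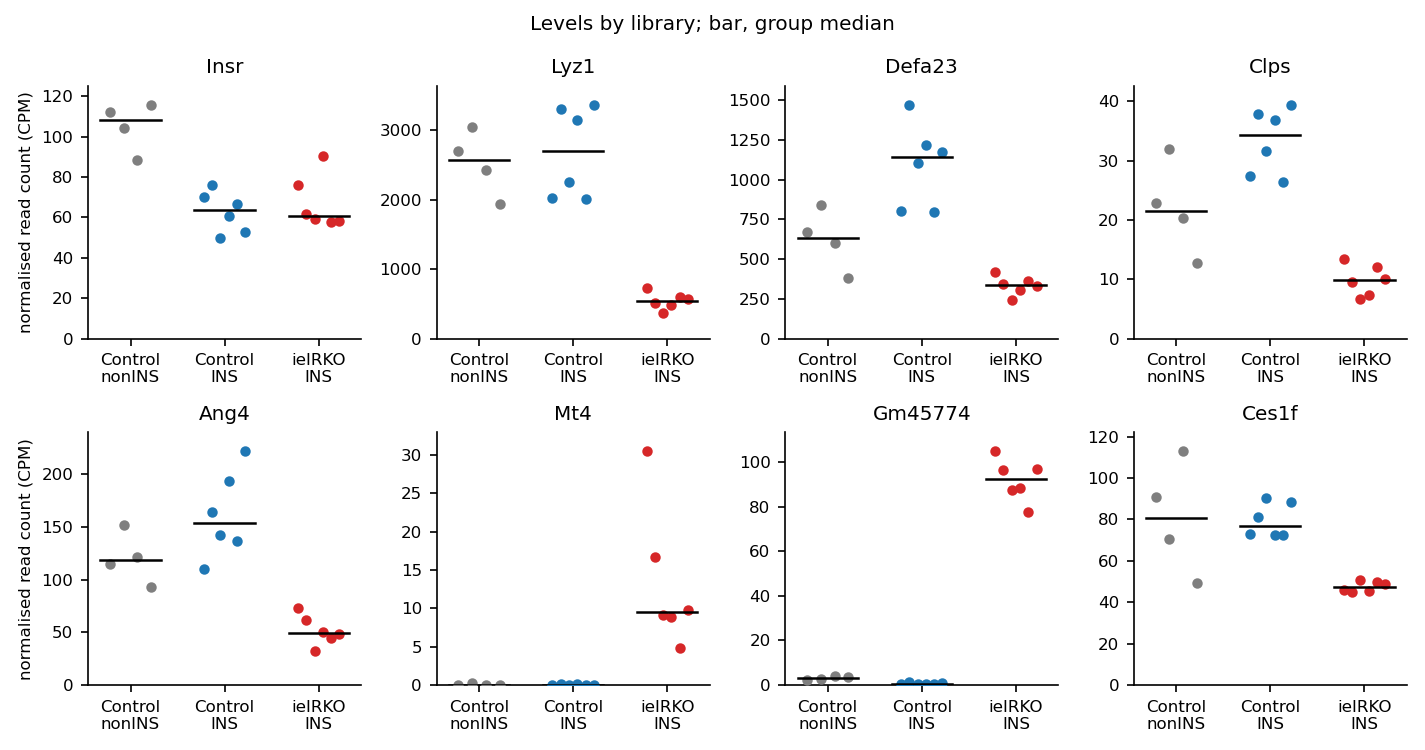
Normalised read count (CPM, linear axes from 0) of 8 genes in each library of the 3 groups. Points are libraries and bars are group medians. In Insr the insulin-treated groups overlap, with medians of 63.7 CPM in Control-STAM-INS and 60.5 CPM in ieIRKO-STAM-INS, and in the other 7 genes they do not.

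Lyz1 had the lowest adjusted p among the lower genes. It had 362 CPM at the lowest, 546 CPM at the median and 721 CPM at the highest in ieIRKO-STAM-INS. In Control-STAM-INS these were 2014, 2702 and 3367 CPM. Every ieIRKO-STAM-INS library lay well below every control, including the 4 libraries without insulin, whose lowest level was 1937 CPM. On the log2 scale the difference was -2.31 (standard error 0.18, adjusted p = 1.25e-06 by edgeR), or 4.95-fold lower, and it was -2.19 without replicates 2 and 3. Lyz2, the myeloid lysozyme gene beside it, ranged from 59.5 to 211 CPM in ieIRKO-STAM-INS and from 61.7 to 74.0 CPM in Control-STAM-INS (log2 fold change 0.78, adjusted p = 0.344 by edgeR). Without replicates 2 and 3 the log2 fold change of Lyz2 was 0.09. Of the distinct 31-base stretches of the Lyz1 transcript, 34.2% also occur in Lyz2, so that part of the reads of either gene could be counted on the other.

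All 19 tested alpha-defensin genes with Defa names had a log2 fold change below 0, with a median of -1.19, against 0.02 over all tested genes. edgeR called 15 of the 19 lower, with all 19 lower at an unadjusted p under 0.05, and DESeq2 called all 19. Of the 22 such genes in the tables, Defa25 and Defa31 were listed at 0 in all 12 libraries and Defa27 was below the filter. Fewer cells of a type and less RNA per cell cannot be told apart in whole wall tissue.

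The largest falls of the family were in Defa26 and Defa23. Defa23, whose promoter is shown above, had 242, 338 and 418 CPM at the lowest, median and highest in ieIRKO-STAM-INS, and 795, 1140 and 1472 CPM in Control-STAM-INS. The insulin-treated groups did not overlap, while Control-STAM-nonINS, at 378 to 839 CPM, reached down into the ieIRKO-STAM-INS range. The fitted log2 difference was -1.71, with an adjusted p of 0.000171 by edgeR. Defa26 was much scarcer, at 4.50 to 6.61 CPM in ieIRKO-STAM-INS and 11.8 to 27.5 CPM in Control-STAM-INS (log2 fold change -1.72, standard error 0.21, adjusted p = 0.000402 by edgeR). Defa24 had 980, 1236 and 1533 CPM in ieIRKO-STAM-INS and 2207, 3200 and 4497 CPM in Control-STAM-INS. Its groups did not overlap (log2 fold change -1.38, standard error 0.17, adjusted p = 0.000402). The called members with the smallest change were Defa30 (-0.87), Defa5 (-0.93) and Defa36 (-0.95). The 4 members that were not called were Defa37 (-1.09, adjusted p = 0.0604), Defa32 (-0.82, 0.0646), Defa34 (-0.79, 0.121) and Defa28 (-1.15, 0.189). Defa28 was close to the limit of the filter, at 0.54 to 1.00 CPM in ieIRKO-STAM-INS.

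These genes are so alike that the split of reads among them is uncertain. Between 57.1% and 100% of the 31-base stretches of a Defa transcript occur in the transcript of another gene (median 92.5%, 22 genes). Summed over the family, the share of a library's reads was 0.678% to 1.11% in ieIRKO-STAM-INS. It was 1.45% to 2.46% in Control-STAM-INS, and libraries without insulin had 1.09% to 1.46%. The insulin-treated groups did not overlap in this share. Of 5 tested coding genes of the same cluster without a Defa name, edgeR called 4 lower, Gm7861 (log2 fold change -1.56), Gm15292 (-1.95), AY761184 (-1.52) and Gm14851 (-1.17), and Gm15293 was at -0.74 (adjusted p = 0.194). Without replicates 2 and 3 the median over the Defa genes was -1.13 and 11 were called.

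Beyond the defensins, 5 genes of the list of other Paneth cell products fell. Of the 13 tested genes of this list, Lyz1 included, edgeR called 5 lower and 0 higher, all 13 were below 0, 6 were lower at an unadjusted p under 0.05, and the median log2 fold change was -0.56. Leaving out replicates 2 and 3, 3 of the 13 were called and the median was -0.43. Clps, colipase, a cofactor of lipid digestion, had 6.65, 9.84 and 13.5 CPM in ieIRKO-STAM-INS and 26.5, 34.2 and 39.4 CPM in Control-STAM-INS. The insulin-treated groups did not overlap (log2 fold change -1.75, standard error 0.21, adjusted p = 0.000402 by edgeR). Ang4, angiogenin 4, an antimicrobial ribonuclease, had 32.5, 49.1 and 73.6 CPM against 110.5, 153.5 and 222 CPM. The groups did not overlap (log2 fold change -1.65, standard error 0.20, adjusted p = 0.000402). Itln1, intelectin 1, a lectin that binds bacterial sugars, had 237, 332 and 435 CPM against 593, 891 and 1017 CPM. The fitted fall was -1.36 on the log2 scale (standard error 0.25, adjusted p = 0.0234), and Control-STAM-nonINS, at 128 to 525.6 CPM, overlapped the ieIRKO-STAM-INS libraries. The call of Itln1 was lost when any 1 of 9 libraries was left out. Nupr1, a nuclear stress-response protein and not a secreted one, fell from 31.3 to 39.2 CPM in Control-STAM-INS to 17.1 to 25.3 CPM (log2 fold change -0.79, adjusted p = 0.00926). Habp2, a secreted protease, was at -0.80 without overlap of the groups but was not called (adjusted p = 0.0971).

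The other 7 tested products were not called, and in each the groups overlapped. Pnliprp2, a pancreatic lipase-related protein, was at -0.56 (standard error 0.31), Mptx1, a mucosal pentraxin, at -0.45 (standard error 0.56), Pla2g2a, a secreted phospholipase, at -0.38 (standard error 0.32), and Guca2b, uroguanylin, at -0.37 (standard error 0.24). Mmp7, the protease that activates mouse alpha-defensins, had 84.3 to 111 CPM in ieIRKO-STAM-INS and 71.8 to 122 CPM in Control-STAM-INS (log2 fold change -0.05, 95% confidence interval -0.33 to 0.23). Mptx2, a second mucosal pentraxin, was at -0.14 (adjusted p = 0.845), and Spink4, a protease inhibitor shared with goblet cells, at -0.22 (adjusted p = 0.591). Whether these genes differed from the defensins in their change was not tested. Ang5 and Ang6 were listed at 0 in all 12 libraries.

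The factors that specify and sustain Paneth cells were measured separately. Of 19 regulators and niche factors, 0 were called by edgeR or DESeq2, and at an unadjusted p under 0.05 1 was lower and 0 higher. The median log2 fold change was 0.09. Leaving out replicates 2 and 3, 1 was lower and 2 were higher at that p, with a median of 0.12. The lower gene of all libraries, Tgfa, a growth factor of the epidermal growth factor family, had 17.7 to 26.2 CPM against 27.2 to 31.8 CPM (log2 fold change -0.36, adjusted p = 0.319). Atoh1 and Gfi1, transcription factors of the secretory lineage, were at 0.21 and 0.37, Sox9 at 0.10 and Wnt3, a Wnt ligand made by Paneth cells, at -0.36, with adjusted p of 0.535 or more. Xbp1, which drives secretory capacity, had 206 to 382 CPM in ieIRKO-STAM-INS and 172 to 250 CPM in Control-STAM-INS (log2 fold change 0.29, adjusted p = 0.444). Of 15 unfolded protein response genes 0 were called by edgeR or DESeq2 or had an unadjusted p under 0.05.

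**Figure D2:**
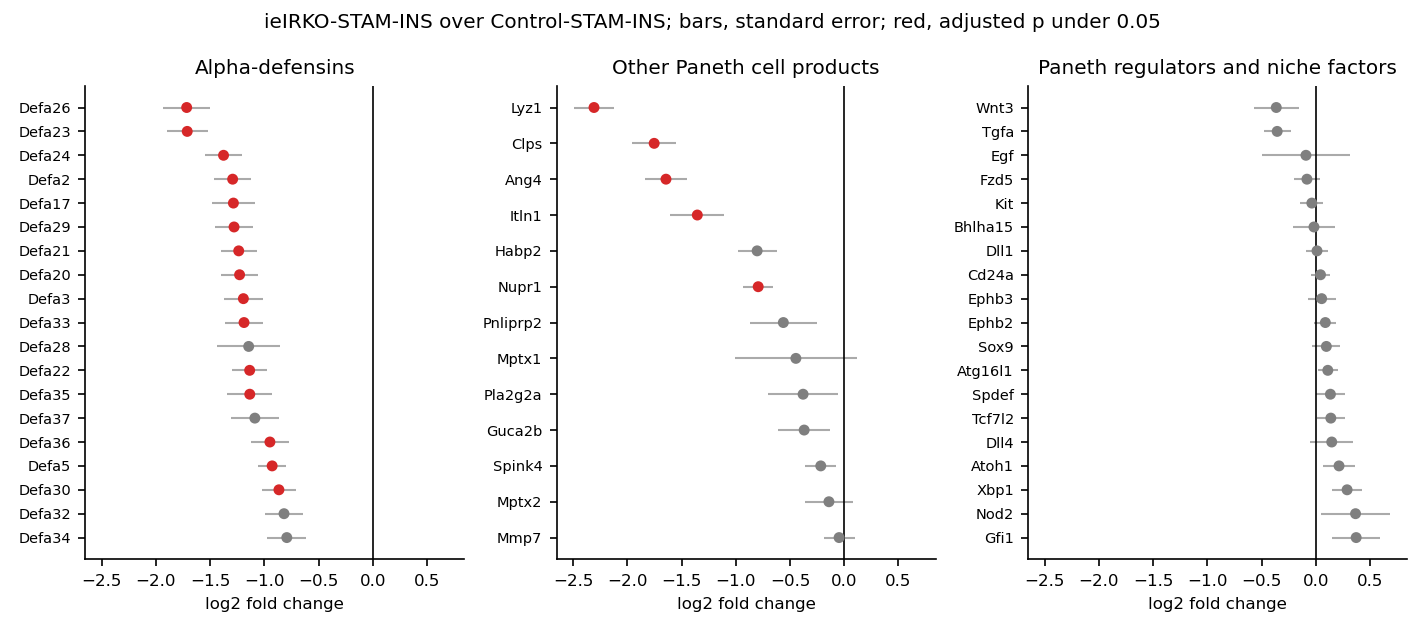
Log2 fold change (ieIRKO-STAM-INS over Control-STAM-INS) of the tested alpha-defensins, other Paneth cell products and Paneth regulators, with the standard error as bars and red points for an adjusted p under 0.05. All 19 alpha-defensins lie between -1.72 and -0.79, the other products between -2.31 and -0.05, and the regulators between -0.36 and 0.37.

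The neighbouring secretory and stem cell programmes showed no called gene. Goblet cell genes (10 tested), tuft cell genes (9), enteroendocrine genes (13), crypt stem cell and Wnt target genes (13), cell cycle genes (15), smooth muscle genes (10) and epithelial lectins outside Paneth cells (8) had 0 called by edgeR and 0 by DESeq2. Their median log2 fold changes lay between -0.08 (smooth muscle) and 0.11 (tuft). At an unadjusted p under 0.05, 3 cell cycle genes, 2 crypt genes and 1 enteroendocrine gene were higher, 1 goblet gene was lower, and the other 3 lists had 0. Muc2, the main mucin of goblet cells, was at 0.06 (adjusted p = 0.889), Lgr5, the receptor that marks crypt stem cells, at 0.05 (adjusted p = 0.919), and Reg3g, an antibacterial lectin of the epithelium, at 0.17 (adjusted p = 0.883). Myc, a Wnt target, had 21.5 to 37.8 CPM against 15.5 to 23.4 CPM and was not called (log2 fold change 0.56, standard error 0.16, adjusted p = 0.279). Mcm6, a DNA replication helicase subunit, was at 0.33 (adjusted p = 0.284). The 3 cell cycle genes with an unadjusted p under 0.05, Mcm3, Mcm6 and Mcm2, all encode subunits of this helicase. Without replicates 2 and 3, 1 of the 15 cell cycle genes (Mcm6) was higher at that p, and the median moved from 0.08 to -0.02.

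Enterocytes, the absorptive cells, showed lower values without a call in most lists. Of 13 digestion genes 0 were called by edgeR or DESeq2, 12 were below 0, 3 were lower at an unadjusted p under 0.05, and the median was -0.35. Enpep, a brush border aminopeptidase, had 915, 1781 and 2628 CPM in ieIRKO-STAM-INS and 2158, 2600 and 2886 CPM in Control-STAM-INS. Treh, the enzyme that splits trehalose, had 23.4, 58.7 and 89.95 CPM against 57.0, 103 and 128 CPM. In both genes the groups overlapped (adjusted p = 0.355 and 0.353 by edgeR). Anpep, the member with the highest level, was at -0.37 (standard error 0.22, adjusted p = 0.559). The ieIRKO-STAM-INS libraries were widely spread. Summed over the digestion genes they ran from 10940 CPM in replicate 5 to 35630 CPM in replicate 1, while the 6 Control-STAM-INS libraries lay between 25030 and 31070 CPM.

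Lipid handling genes had a median of -0.27, with 17 of 20 below 0, and solute transporters -0.11, with 9 of 12 below 0. Neither list had a gene called by edgeR or DESeq2, and at an unadjusted p under 0.05, 3 of the 20 lipid genes and 0 of the 12 transporters were lower. Without replicates 2 and 3 these counts were 0 and 0, and that of the digestion genes was 1 in place of 3, while the medians were -0.24, -0.06 and -0.37. Slc10a2, the ileal bile acid transporter, was at -0.50 (standard error 0.35) and Apoa1, a lipoprotein component, at -0.45 (standard error 0.24), with adjusted p of 0.623 and 0.508 by edgeR. Slc5a1, the sodium-glucose cotransporter, was at -0.26 (standard error 0.22). The same library, replicate 5, had the lowest sums of the group in lipid handling (10100 CPM) and transport (2229 CPM).

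Carboxylesterases hydrolyse esters of lipids and drugs, and 1 of 12 tested members was called. Ces1f had 44.9, 47.2 and 50.75 CPM in ieIRKO-STAM-INS and 72.3, 76.9 and 90.2 CPM in Control-STAM-INS. The ieIRKO-STAM-INS libraries were tightly grouped and all were lower (log2 fold change -0.74, standard error 0.14, adjusted p = 0.0219 by edgeR), but the call was lost in 6 of the 16 fits without 1 library. Its neighbour Ces1e also did not overlap between groups but was not called (-0.70, adjusted p = 0.141), and DESeq2 called both. Ces2b was at -1.12 and Ces1b at 1.29, with adjusted p of 0.327 and 0.36. The median over the 12 was -0.40, with 2 higher and 5 lower at an unadjusted p under 0.05. Gasdermins, pore-forming proteins of the epithelium, had 0 of 6 called by edgeR or DESeq2, 0 with an unadjusted p under 0.05 and a median of -0.53.

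The second chromosome 8 site was the metallothionein cluster. Gm45774 is annotated as an antisense gene (chr8:94170748-94173412, - strand) that covers the promoter of Mt2 and overlaps the gene itself by 749 bases. It had 77.5, 92.6 and 105 CPM in ieIRKO-STAM-INS, 0.33, 0.48 and 1.18 CPM in Control-STAM-INS, and 2.08 to 4.03 CPM in Control-STAM-nonINS. No control library came near the ieIRKO-STAM-INS range, in which 1360 to 1650 reads were counted per library against 5 to 15 in Control-STAM-INS. The fitted log2 difference was 7.33 (standard error 0.21), with an adjusted p of 8.21e-14 by edgeR. Mt4, a metallothionein best known from stratified epithelium, had 4.83, 9.49 and 30.5 CPM in ieIRKO-STAM-INS. In Control-STAM-INS 0 to 2 reads per library were counted on it. Its mean level was at least 56.6-fold higher than the floor of 3 counts in 1 library (0.235 CPM), and the lowest ieIRKO-STAM-INS library was at least 20.5-fold higher (adjusted p = 1.84e-05 by edgeR). Without replicates 2 and 3 both genes were still called.

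Mt1 and Mt2, the metallothioneins made in most cells, were not called by edgeR, and the difference between them was not tested. Mt1 had 321, 379 and 624.8 CPM in ieIRKO-STAM-INS and 60.2, 149 and 296 CPM in Control-STAM-INS. Control-STAM-nonINS, at 166.5 to 445 CPM, overlapped both. The insulin-treated groups did not overlap, yet Mt1 was not called by edgeR (log2 fold change 1.41, standard error 0.36, adjusted p = 0.216), while DESeq2 gave an adjusted p of 0.0205. Mt2 had 36.9, 47.4 and 97.8 CPM against 11.6, 72.2 and 148 CPM, with full overlap (log2 fold change -0.33, standard error 0.50, adjusted p = 0.845). In Control-STAM-nonINS Mt2 had 117 to 412 CPM. The reads on Mt1 per read on Mt2 ran from 6.39 to 9.13 in ieIRKO-STAM-INS, from 1.69 to 5.18 in Control-STAM-INS and from 1.02 to 1.42 in Control-STAM-nonINS. This ratio was chosen after the values were seen and is given without a test. The libraries were made with a directional kit, but whether strand was used in counting is not given in the sources used here, and 57.6% of the 31-base stretches of Mt2 occur on the opposite strand of Gm45774. Over these stretches, reads of the 2 genes may thus not be told apart. Mt4 and Mt1 share no such stretch with another gene. The reads on Gm45774 per read on Mt2 ran from 1.07 to 2.62 in ieIRKO-STAM-INS. They ran from 0.00278 to 0.0588 in Control-STAM-INS and from 0.00671 to 0.0302 in Control-STAM-nonINS. This ratio, too, was chosen after the values were seen and was not tested. Mt3 was under 1 CPM in every one of the 12 libraries (adjusted p = 0.768). Of 11 genes for zinc transporters and the metal-responsive factor Mtf1, 0 were called by edgeR or DESeq2, with 1 higher and 2 lower at an unadjusted p under 0.05, and Mtf1 was at -0.14 (adjusted p = 0.721).

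The metallothionein site was followed outward. Of 38 tested genes within 1 Mb of a metallothionein gene, 3 were called higher and 1 lower. Besides Gm45774 and Mt4 these were Ciapin1, an iron-sulfur cluster assembly factor at 640.7 kb from the start of Mt1, and Ces1f, at -922.8 kb on the other side. Ciapin1 had 35.1, 38.5 and 48.6 CPM in ieIRKO-STAM-INS and 25.0, 27.3 and 29.7 CPM in Control-STAM-INS. The groups did not overlap (log2 fold change 0.55, standard error 0.10, adjusted p = 0.0127 by edgeR). Genes closest to the site, Nup93 (0.10) on the Mt1 side and Bbs2 (0.09) on the Mt4 side, differed by less than their standard errors of 0.13 and 0.17. The remaining 36 genes, without Mt4 and Gm45774, had a median size of log2 fold change of 0.20, against 0.127 over all tested genes.

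**Figure D3:**
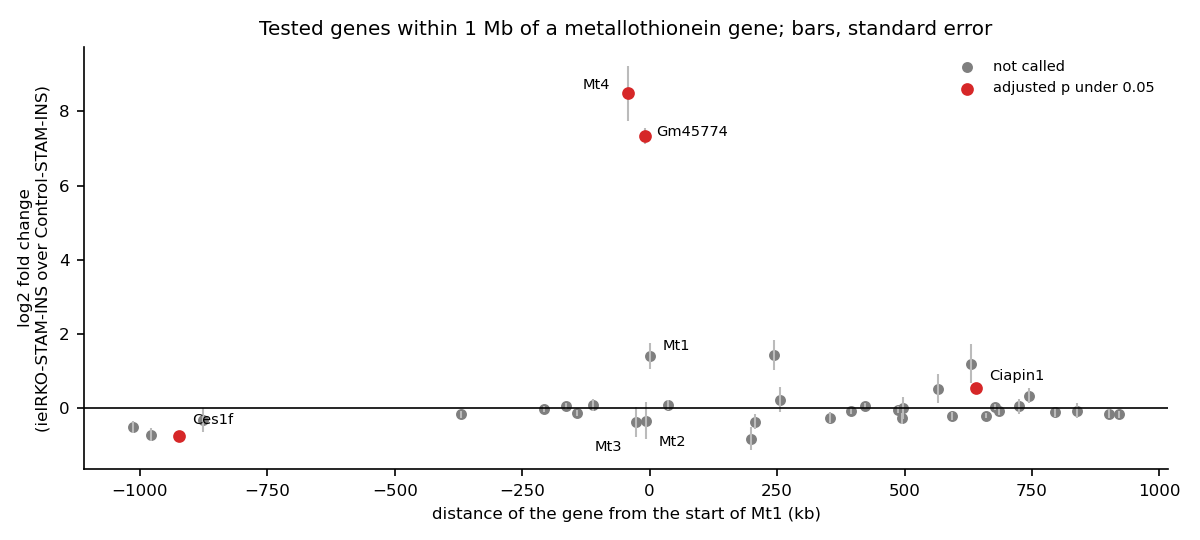
Log2 fold change (ieIRKO-STAM-INS over Control-STAM-INS) of 38 tested genes by distance in kb from the start of Mt1, with the standard error as bars and red points for an adjusted p under 0.05. Mt4 (8.48) and Gm45774 (7.33) stand far above their neighbours, most of which lie within 0.5 of 0.

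Chromosome 8 held 23 of the 34 called genes but 5.43% of the tested genes with a position. The alpha-defensin cluster (chromosome 8, 21025545 to 21735471) held 19 of them, all lower, out of 24 tested genes, and the metallothionein window held 4. In the remaining 759 tested genes of the chromosome edgeR called 0, with 53 higher and 32 lower at an unadjusted p under 0.05, and DESeq2 called 3 higher and 1 lower. Their median log2 fold change was 0.01. The 4 in the window are split between 3 higher and 1 lower.

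The called genes elsewhere were few. Ndnf, a secreted neurotrophic factor, was scarce at 1.11, 1.49 and 1.55 CPM in ieIRKO-STAM-INS and 0.26, 0.41 and 0.71 CPM in Control-STAM-INS. The groups did not overlap, on 4 to 29 reads per library (log2 fold change 1.65, standard error 0.26, adjusted p = 0.00328 by edgeR). Il1rl1, the receptor for the alarmin interleukin 33, had 9.06, 13.3 and 15.45 CPM against 4.94, 6.24 and 8.94 CPM. Its Control-STAM-nonINS libraries lay higher than either, at 15.5 to 22.5 CPM (log2 fold change 0.99, standard error 0.16, adjusted p = 0.00328). Prodh, the first enzyme of proline breakdown, had 55.3, 63.4 and 71.02 CPM against 77.7, 90.5 and 102 CPM (log2 fold change -0.53, adjusted p = 0.00818). H2-Q2, a class I histocompatibility gene, was at -0.72 (adjusted p = 0.0234), and 32.8% of its 31-base stretches occur in other genes. Tmeff2, a transmembrane protein, was at -1.10 (adjusted p = 0.0285). Leaving out 1 library ended the call of H2-Q2 in 5 of the 16 fits and that of Tmeff2 in 8. The genes just past the threshold included Hif3a (-1.39, adjusted p = 0.0633), Cth, an enzyme of cysteine synthesis (-0.50, 0.0646), and Xpo5, the exporter of microRNA precursors (0.36, 0.0697).

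Lymphoid genes were higher at the median, but the value rested on 2 libraries. Of 20 tested B cell and germinal centre genes 0 were called by edgeR, 18 were higher at an unadjusted p under 0.05, and the median log2 fold change was 2.37, while DESeq2 called 11 higher. Without replicates 2 and 3 the median was 0.13 and 4 genes were higher at an unadjusted p under 0.05, against 3.82% of all tested genes higher and 2.8% lower at that p. Ms4a1, which encodes CD20, had 80.3 CPM in replicate 2, 37.5 CPM in replicate 3, and 0.72 to 4.88 CPM in the other 4, against 0.60 to 2.30 CPM in Control-STAM-INS. The fitted log2 difference was 4.01 (standard error 1.04, adjusted p = 0.245 by edgeR) with all libraries and 0.90 without these. Cd79a, a subunit of the B cell receptor, had 14.6, 25.8 and 119 CPM against 8.79, 10.5 and 18.03 CPM, and its groups overlapped (adjusted p = 0.217).

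The same 2 libraries stood out in follicle genes. Of 13 genes for follicle stroma and homing 0 were called by edgeR or DESeq2, 9 were higher at an unadjusted p under 0.05, and the median moved from 1.39 to 0.00 without them. Clu, a protein of follicular dendritic cells, had 267 CPM in replicate 2 and 199.6 CPM in replicate 3, against a median of 46.2 CPM in the group and 36.0 to 41.9 CPM in Control-STAM-INS. T cell genes (18 tested) moved from a median of 0.37 to -0.03, with 0 called by edgeR or DESeq2 and 3 higher at an unadjusted p under 0.05. Class II antigen presentation genes had 0 of 9 called by edgeR and 1 by DESeq2, with 2 higher at an unadjusted p under 0.05, and 0 without these libraries. Among them H2-Ob, which B cells use, was at 2.76 with all libraries and 0.20 without these, while H2-Aa was at -0.12 and -0.30. Myeloid genes (15 tested) had 0 called by edgeR or DESeq2, 2 higher at an unadjusted p under 0.05 and a median of 0.16, and Lyz2 was the highest of them. With replicates 2 and 3 left out, 1 was higher at that p and the median was -0.0026. Their summed level was 543 and 605 CPM in these 2 libraries, 298 to 473 CPM in the other 4 and 327 to 389 CPM in Control-STAM-INS. Lax1, an adaptor of lymphocyte receptors, was the lymphocyte gene that edgeR called. It had 14.2, 18.01 and 29.2 CPM against 8.71, 9.58 and 11.6 CPM (log2 fold change 0.97, standard error 0.17, adjusted p = 0.0108). The 2 highest libraries were again replicates 2 and 3, and without them its groups still did not overlap, with a log2 fold change of 0.70 (adjusted p = 0.0841).

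Plasma cell genes followed another pattern. Of 8 tested genes 0 were called by edgeR and 1 by DESeq2, 5 were higher and 1 lower at an unadjusted p under 0.05, and the median was 0.62 with all libraries and 0.65 without replicates 2 and 3. The lower gene was Sdc1 (log2 fold change -0.22), and without these 2 libraries 6 were higher and 0 lower at that p. Jchain, the joining chain of secreted antibodies, had 1275, 1919 and 3027 CPM against 920, 1242 and 1505 CPM (log2 fold change 0.68, standard error 0.22, adjusted p = 0.300 by edgeR). Irf4, a factor for plasma cell formation, had 6.45, 14.0 and 22.2 CPM against 5.47, 7.11 and 8.26 CPM (log2 fold change 0.99, adjusted p = 0.210), and DESeq2 called it. The groups overlapped in both genes. The 2 highest libraries of Irf4 were ieIRKO-STAM-INS replicates 2 and 3, at 22.2 and 16.2 CPM, and the rest of that group had 6.45 to 14.6 CPM. The genes for the constant parts of antibodies and T cell receptors on the list (Igha, Iglc1, Igkc, Trac, Trdc, Trbc1 and Trbc2) were listed at 0 in all 12 libraries, so these lists rest on other genes. Of 13 interferon-stimulated genes 0 were called by edgeR or DESeq2, 2 were lower at an unadjusted p under 0.05, the median was -0.23, and Irf7, a regulator of interferon genes, was at -0.59 (standard error 0.18, adjusted p = 0.290). With replicates 2 and 3 left out, the median of these 13 was -0.07 and 1 was lower at that p.

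**Figure D4:**
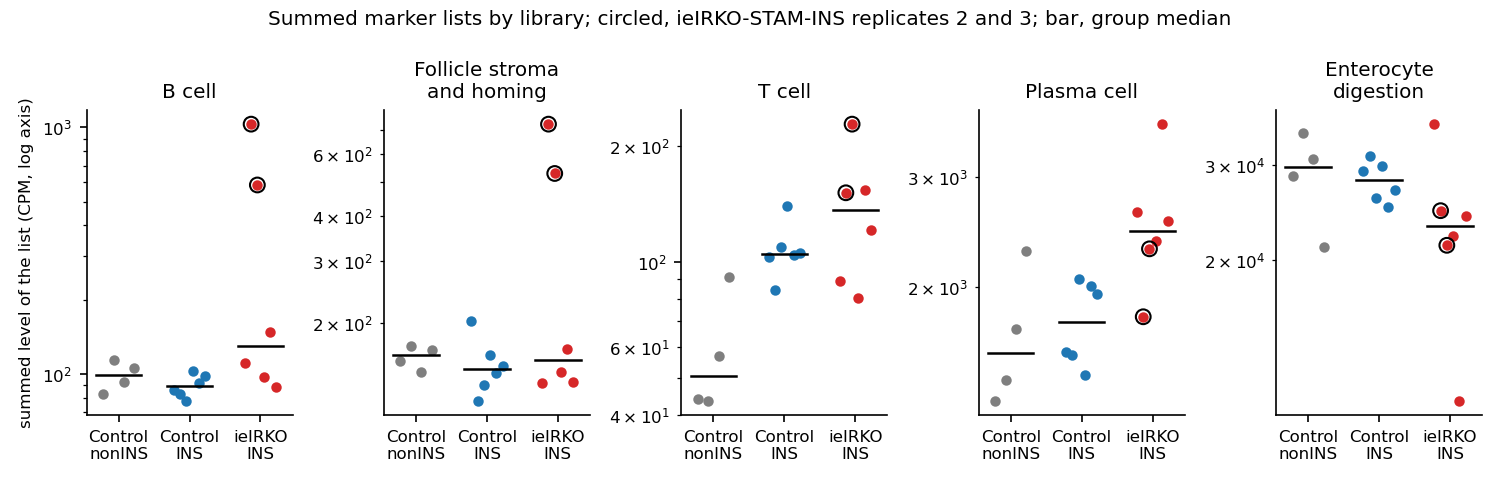
Summed level (CPM, log axes) of 5 marker lists in each library, with bars for group medians and circles around ieIRKO-STAM-INS replicates 2 and 3. These 2 libraries, at 1031 and 584 CPM, stand above all others in B cell genes, and ieIRKO-STAM-INS replicate 5 is lowest in enterocyte digestion genes at 10940 CPM.

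The B cell content and the Paneth cell results were set side by side. Lyz1 had 517 CPM in replicate 2 and 362 CPM in replicate 3, and 479 to 721 CPM in the other 4 ieIRKO-STAM-INS libraries, all under the lowest control at 2014 CPM. The share of alpha-defensin reads was 0.925% and 0.678% in these 2 and 0.722% to 1.11% in the other 4. Without the 2 libraries, the log2 fold change of Lyz1 was -2.19 and the median over the Defa genes -1.13. Replicate 5, lowest in enterocyte genes, had 599 CPM of Lyz1 and an alpha-defensin share of 1.04%. The part of enterocyte content in the enterocyte values was not tested.

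**Figure D5:**
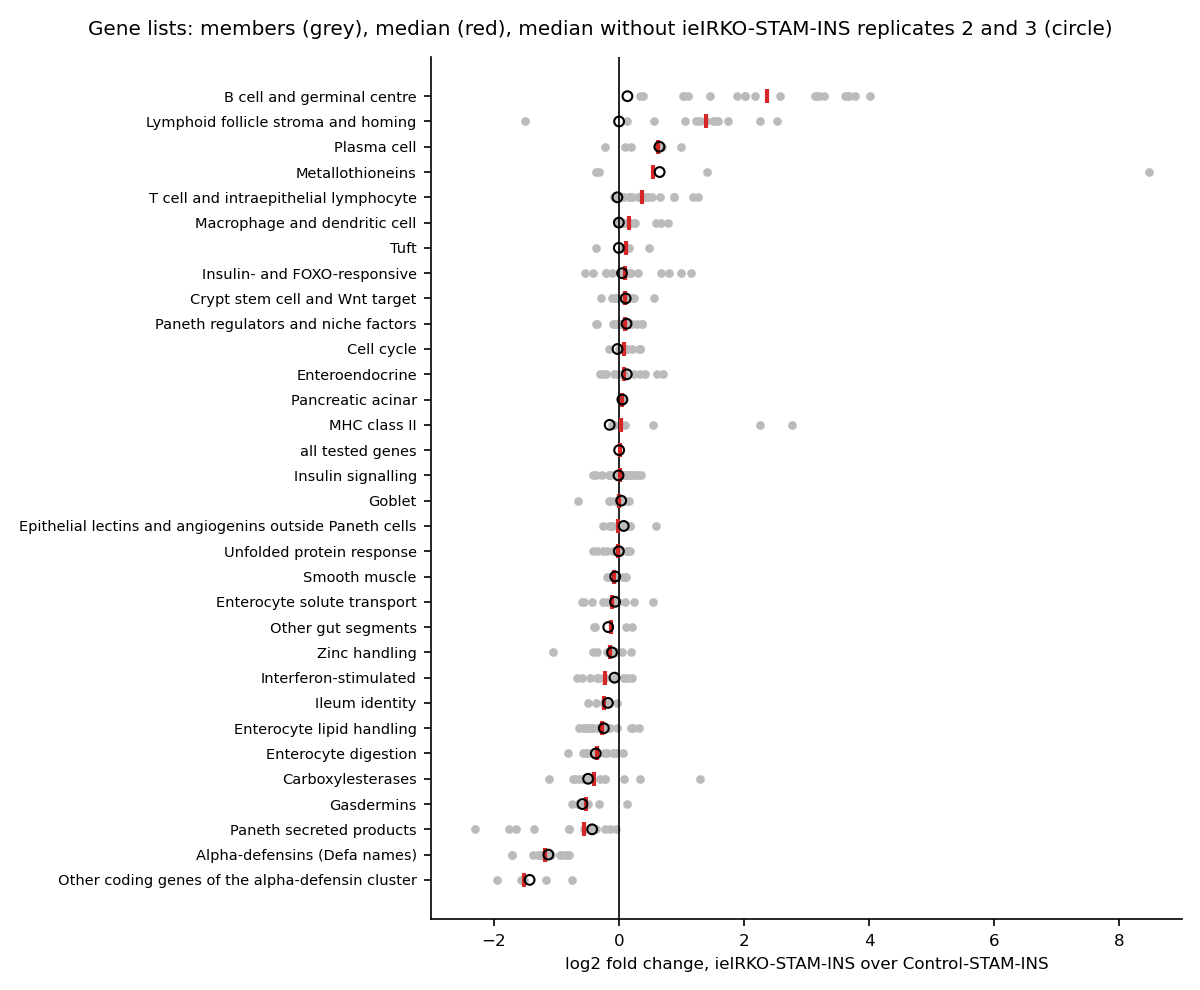
Log2 fold change (ieIRKO-STAM-INS over Control-STAM-INS) of the tested members of each gene list in grey, with the median of all libraries in red and the median without ieIRKO-STAM-INS replicates 2 and 3 as an open circle. Without these libraries the alpha-defensin median moves from -1.19 to -1.13, the Paneth product median from -0.56 to -0.43 and the B cell median from 2.37 to 0.13.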

How the data were processed

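RNA from the ileal whole wall was sequenced with a directional library kit, and the authors mapped the reads to GRCm38 (mm10) with CLC Genomics Workbench. The deposited files hold raw read counts per gene, without normalisation. Whether strand was used in counting, and how reads shared by several genes were assigned, is not given in the sources used here. Each library was taken as 1 animal.

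Here, genes were kept by edgeR's filterByExpr (minimum count 10, minimum total 15), which left 15267 of 41740, and scaled by TMM. All 16 libraries in 3 groups were fitted with edgeR's quasi-likelihood test (robust), and ieIRKO-STAM-INS was contrasted with Control-STAM-INS with Benjamini-Hochberg adjustment over all tested genes at 0.05. R 4.3.3, edgeR 4.0.16, limma 3.58.1 and DESeq2 1.42.0 were used, with Python 3.11.15, pandas 2.3.3, numpy 2.4.6 and Biopython 1.88. The scripts were tested on simulated data. Libraries held 13288018 to 22215382 counts. Libraries of a group differed by more than counting error (chi-square per gene of at least 15.75). With 1 library per animal, this spread can hold differences between animals, dissections and library preparations, which cannot be told apart.

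The gene lists and the comparison were chosen with earlier results of these data known. Genes were named by a rule: Insr, every called gene, the alpha-defensins, the metallothioneins and tested genes within 1 Mb of them, the called, most abundant and most changed members of each list, and the 5 uncalled genes with the lowest p. Other genes, named as examples of a list's function, were chosen after their values were seen. Positions are from GENCODE on GRCm38, and promoters from RefSeq on GRCm38.p6. The alternatives were DESeq2, a likelihood ratio test, other filters and scaling, the insulin-treated libraries alone, the replicate number as a block, and each library left out in turn. The replicate numbers were checked for pairing by the correlation of deviations from the group means, and the block was kept as an alternative.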

Additional observations from a re-analysis of the deposited data

Results flagged for a closer look

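In 3 of 138 groups of values tested, 1 library lay far from the others of its group, where chance alone gives about 1 in 20 groups, or 6.9. The distance is the gap to the nearest other library divided by the range of the group. It can miss libraries that lie far out together, as ieIRKO-STAM-INS replicates 2 and 3 did in B cell genes. In Control-STAM-INS replicate 6 the summed level of the zinc handling genes was high (1380 CPM, gap 0.643 of the range), as was that of the gasdermins (705 CPM, gap 0.714 of the range). In Control-STAM-INS replicate 3 the summed level of genes of other gut segments was high (396 CPM, gap 0.636 of the range).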

How the results depend on the processing

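The count of called genes depended on the tool. DESeq2 called 123 genes (65 higher, 58 lower) and the likelihood ratio test 90 (39 higher, 51 lower), and both included all 34 that edgeR's quasi-likelihood test called. The cause was not tested. A minimum of 10 counts in every library left 31 called with 3 higher, since it removes genes that are near 0 in controls. Over the fits that each left out 1 library, 29 to 50 genes were called, 6 to 12 of them higher and 23 to 39 lower. The higher count was 11 without ieIRKO-STAM-INS replicate 1, 10 without replicate 4 and 12 without replicate 6, and the total was 50 without replicate 1. The log2 fold change of Insr ran from -0.0026 to 0.16 in these fits, was below 0 without ieIRKO-STAM-INS replicate 4 (-0.0026, adjusted p = 0.994 by edgeR), and passed the threshold in none. Of the 34 genes 28 kept their call in all 16 fits. Ces1f, Defa35, Defa36, H2-Q2, Itln1 and Tmeff2 did not. Without ieIRKO-STAM-INS replicates 2 and 3, an alternative chosen after seeing the data, 18 genes were lower and 5 higher. The replicate numbers did not pair the libraries, since the correlations of the deviations were -0.0204 to 0.166. With the replicate number as a block 30 genes were called (5 higher, 25 lower), 27 of them among the 34, and Insr was at 0.09. The 4 remaining alternatives called 32 to 37 genes.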
